A study of Arabidopsis thaliana with 9 samples.

Results

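RNA bound by ARGONAUTE4 (AGO4) in *Arabidopsis thaliana* is described here from the list of transcripts that the authors called in AGO4 RNA immunoprecipitation followed by sequencing (AGO4 RIP-seq). All 3940 rows of that list were taken, of 8442 transcripts listed in the series, the other 4502 being transcripts associated with RNA polymerase V (Pol V). The *ago4* library came from *ago4-1* plants, whose mutation was introgressed into the Col-0 background, and the Col-0 library from wild-type plants. All plants were about 2.5 weeks old, and nuclear RNA of the aerial part of soil-grown seedlings fixed with 0.5% formaldehyde was precipitated with an anti-AGO4 antibody. There was 1 library per genotype, so no replicate check and no test between the genotypes was possible, and all intervals cover counting error only. Intervals of read ratios count every duplicate read as a separate read and are therefore too narrow. On the list, *ago4* had 6245 reads and Col-0 had 118313. No source used here gives how many reads each library held in all, and both were treated as equally deep. The authors selected the list on these same libraries for more reads in Col-0, so that direction is not a finding. The precipitated protein comes from an annotated gene on chromosome 2, no listed transcript overlaps that gene, and the loss of AGO4 in *ago4* could therefore not be checked on these data. Pol V RIP-seq values of *nrpe1* (allele nrpd1b-11, Col-0 background) and Col-0 plants of the same age and tissue, 2 repeats each, are given for comparison.

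AGO4 is a protein of RNA-directed DNA methylation, a pathway by which plants silence transposons and other repeats. It carries small interfering RNAs, which pair with longer non-coding RNA made by Pol V on chromatin, and the DNA methyltransferase DRM2 is brought to such sites. An antibody against AGO4 can thus recover scaffold RNA of Pol V together with other RNA that AGO4 touches, and precipitation from *ago4* plants gives the background of RNA that stays on beads and antibody.

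Several of the most densely covered transcripts were short and carried a common sequence, which is shown here because it joined 5 of them from 3 chromosomes. In AGO4_Trans3801 (chr5:22455107-22455256, plus strand), AGO4_Trans377 (chr1:11671521-11671638, minus strand), AGO4_Trans378 (chr1:11672202-11672353, minus strand) and AGO4_Trans376 (chr1:11670611-11670738, minus strand), the 5′ end holds the letters TAGC, followed after 42 or 43 bases by GTTCGA. These letters are in capitals in the TAIR10.1 sequence below, whose positions count from 1.

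AGO4_Trans3801: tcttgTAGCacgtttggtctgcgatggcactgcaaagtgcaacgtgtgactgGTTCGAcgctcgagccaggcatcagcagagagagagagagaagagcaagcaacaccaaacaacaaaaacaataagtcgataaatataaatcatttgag
AGO4_Trans377: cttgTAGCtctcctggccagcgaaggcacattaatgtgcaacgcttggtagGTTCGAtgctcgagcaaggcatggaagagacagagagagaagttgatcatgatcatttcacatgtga
AGO4_Trans378: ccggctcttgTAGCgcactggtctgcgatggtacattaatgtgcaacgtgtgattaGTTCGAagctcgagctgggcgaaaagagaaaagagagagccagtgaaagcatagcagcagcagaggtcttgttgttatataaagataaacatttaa
AGO4_Trans376: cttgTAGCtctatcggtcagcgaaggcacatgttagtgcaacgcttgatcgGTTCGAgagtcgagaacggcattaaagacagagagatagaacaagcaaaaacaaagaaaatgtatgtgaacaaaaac

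AGO4_Trans2716 on chromosome 4, 159 bp long, had the same arrangement and lies opposite an untranslated exon of a protein-coding gene, so that its sequence is not printed. From TAGC to GTTCGA the stretch was 52 or 53 bases long, and the 10 pairs among these 5 transcripts were 69.8 to 83.0% identical in it. AGO4_Trans3801 had 31 reads in *ago4* and 1123 in Col-0. AGO4_Trans377 had 8 and 268, AGO4_Trans378 had 23 and 249, AGO4_Trans376 had 2 and 117, and AGO4_Trans2716 had 3 and 93 reads in *ago4* and Col-0. These are 10.8-fold to at least 39.0-fold fewer reads in *ago4*. The 3 on chromosome 1 follow each other on the minus strand within 1743 bp, with gaps of 782 and 563 bp. AGO4_Trans3801 and AGO4_Trans377 lie in genes annotated as uncharacterized RNA, AGO4_Trans378 overlaps a long non-coding RNA gene, and AGO4_Trans376 overlaps no annotated gene. None of the 5 overlaps a Pol V transcript.

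The motif was found after the sequences had been read, and its search covered TAGC, 40 to 46 further bases and GTTCGA. It was present on the own strand of 19 of the 3940 AGO4-bound transcripts (0.482%) and on the other strand of 14 (0.355%). Within the first 15 bases it began in the 5 transcripts above only. Of 794306 windows of 150 bases that tile the 5 nuclear chromosomes, 548 (0.0690%) held it on either strand. That share cannot be set against those of the transcripts, which were 513 bp long at the median and were counted per strand. Among the 12 transcripts with the highest density of deduplicated reads in Col-0, 5 held it. Since the motif had been read in densely covered transcripts, this count is a description and no measure of enrichment. The letters GTTCGA also occur in the B box, an internal promoter element of tRNA genes, which is given as background; how these 5 RNAs are made was not tested.

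A different shared sequence joined transcripts without any read in *ago4*. Transcripts were grouped where they shared a word of 30 bases on either strand without overlapping in the genome. The largest group with no *ago4* read had 8 members on all 5 chromosomes. The words that each shares with another member are in capitals for the 4 of them that are at most 300 bp long. They are AGO4_Trans808 (chr1:25594112-25594388, plus strand), AGO4_Trans1564 (chr2:16347320-16347460, plus strand), AGO4_Trans2229 (chr3:18059753-18059987, minus strand) and AGO4_Trans3786 (chr5:21969030-21969161, plus strand).

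AGO4_Trans808: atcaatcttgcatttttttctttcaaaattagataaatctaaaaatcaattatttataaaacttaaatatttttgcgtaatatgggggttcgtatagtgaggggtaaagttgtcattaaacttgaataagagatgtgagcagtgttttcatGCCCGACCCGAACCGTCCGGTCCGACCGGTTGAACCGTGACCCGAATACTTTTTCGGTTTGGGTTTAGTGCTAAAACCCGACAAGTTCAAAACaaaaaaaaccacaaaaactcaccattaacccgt
AGO4_Trans1564: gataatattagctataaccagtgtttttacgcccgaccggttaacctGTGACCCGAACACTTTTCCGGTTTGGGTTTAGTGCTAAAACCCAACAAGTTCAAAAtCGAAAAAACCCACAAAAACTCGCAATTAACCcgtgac
AGO4_Trans2229: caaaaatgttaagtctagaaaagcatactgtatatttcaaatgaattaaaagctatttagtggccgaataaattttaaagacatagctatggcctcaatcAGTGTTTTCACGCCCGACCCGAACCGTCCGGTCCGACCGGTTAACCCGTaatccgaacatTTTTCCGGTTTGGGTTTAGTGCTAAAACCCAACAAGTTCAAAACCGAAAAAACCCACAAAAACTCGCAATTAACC
AGO4_Trans3786: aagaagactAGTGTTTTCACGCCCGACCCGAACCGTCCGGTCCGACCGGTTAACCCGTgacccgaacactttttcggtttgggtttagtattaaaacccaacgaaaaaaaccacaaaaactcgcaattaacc

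These 4 had 0 reads in *ago4* and 15, 13, 16 and 11 reads in Col-0. The other 4 members, AGO4_Trans851, AGO4_Trans1103, AGO4_Trans2788 and AGO4_Trans3568, had 0 reads in *ago4* and 32, 18, 8 and 41 in Col-0. Together the 8 had 0 reads in *ago4* and 154 in Col-0, which allows up to 2.42 *ago4* reads per 100 Col-0 reads (exact 95% interval). The shared words covered 49 to 163 bases of each member, or 14.1 to 61.7% of its length. All 8 overlap a Pol V transcript, and 6 of them lie outside annotated genes. The group was chosen for having no *ago4* read, so its low level is a description. AGO4_Trans808, AGO4_Trans2229, AGO4_Trans2788 and AGO4_Trans3786 had 5 or 6 deduplicated Col-0 reads, at which the selection of the list allows no *ago4* read.

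Sharing such words was not rare on the list. A word of 30 bases joined 432 transcripts (10.96%) to at least 1 other, in 145 groups of 2 to 11 members, of which 80 were pairs. In these 432, *ago4* had 3.34 reads per 100 Col-0 reads (95% interval 3.08 to 3.61), against 5.65 (5.50 to 5.81) in the 3508 that shared none. A Pol V transcript was overlapped by 78.0% of the joined and 41.0% of the other transcripts. The largest group, 11 transcripts on 4 chromosomes, had 30 reads in *ago4* and 527 in Col-0, and 7 of its members had none in *ago4*. A group of 9, 8 of them in gene-poor windows and 6 overlapping pseudogenes, had 28 reads in *ago4* and 1307 in Col-0.

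Most AGO4-bound transcripts had few reads in either library. The median was 0 reads in *ago4*, with a 90th percentile of 3, a 99th of 24 and a highest of 419. In Col-0 the median was 16 reads, with quartiles of 11 and 26, a 99th percentile of 240 and a highest of 4633. Among the 1077 transcripts with a read in *ago4*, 299 had 1, 388 had 2 or 3, 267 had 4 to 9, and 123 had 10 or more. Those 123 carried 56.2% of all *ago4* reads on the list and 26.3% of the Col-0 reads. Their Col-0 to *ago4* ratio was 7.87 at the median, and 103 of them overlap a protein-coding gene. Close to the selection limit, 93 transcripts had a ratio under 7, and 397 under 10, above a lowest ratio of 6.06. Under that limit a transcript with few Col-0 reads can hold few *ago4* reads. With fewer than 7 deduplicated Col-0 reads it can hold none, the lowest ratio of deduplicated reads being 6.125. Shares without an *ago4* read are therefore compared below within classes of Col-0 reads, except for the split by length.

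**Figure D1:**
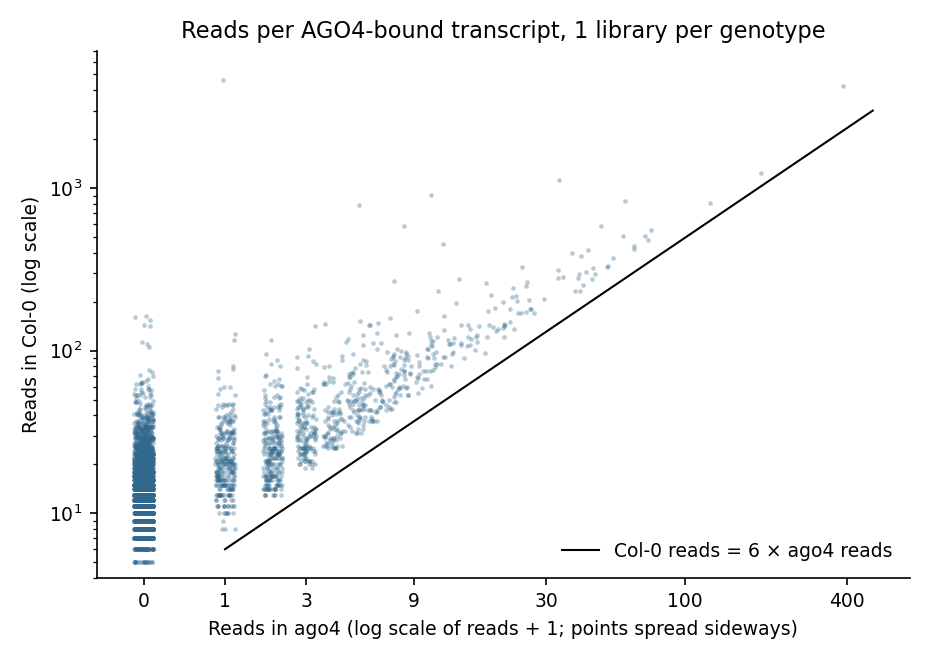
Reads of each of the 3940 AGO4-bound transcripts in the *ago4* library (x axis, log scale of reads + 1, points spread sideways) and in the Col-0 library (y axis, log scale), with a line at 6 Col-0 reads per *ago4* read. Every point lies above the line; the 2863 transcripts at the left had no *ago4* read, and the point at 1 *ago4* read and 4633 Col-0 reads is AGO4_Trans1134.

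Counting at most 3 *ago4* reads as 3, a floor that makes the fold a bound, 1749 of 3940 transcripts (44.4%) were at least 6-fold lower in *ago4*. All others had at most 17 Col-0 reads, too few for such a bound. At least 20-fold lower were 73, and at least 50-fold lower were 7. Since the list was selected on this contrast, these counts describe the depth of the libraries on the list.

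Reads were concentrated on few transcripts. The 10 transcripts with most reads in *ago4* held 19.7% of its reads on the list, and the 10 with most reads in Col-0 held 13.3% of the Col-0 reads. AGO4_Trans1134, which spans 6969 bp of chromosome 2 on the plus strand, had 1 read in *ago4* and 4633 in Col-0. It overlaps a pseudogene, AT2G11240, on the opposite strand, and 73.7% of its length lies in the protein-coding genes AT2G11215 and AT2G11225 on its own strand. After deduplication it had 1 read in *ago4* and 2467 in Col-0, or 35.4 Col-0 reads per 100 bp. Almost all of its words of 50 bases (99.9%) occur at a single place in the genome, and no Pol V transcript overlaps it.

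AGO4_Trans814, 375 bp on the minus strand of chromosome 1, had the highest density of the list. It had 419 reads in *ago4* and 4227 in Col-0, 10.1-fold lower in *ago4* (exact 95% interval 9.12 to 11.2). It contains the whole of AT1G09027, a snoRNA gene annotated as AtsnoR102 on the same strand, and lies opposite the protein-coding gene AT1G68945. Small nucleolar RNAs guide chemical modification of ribosomal and spliceosomal RNA. Deduplication left 146 reads in *ago4* and 1005 in Col-0, a ratio of 6.88, which lies outside the interval from all reads. Its Col-0 density was 1127 reads per 100 bp with all reads and 268 with deduplicated reads, against a list median of 3.14 and 1.62.

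AGO4_Trans2393, 5127 bp on chromosome 3, had 199 reads in *ago4* and 1235 in Col-0, and overlaps the pseudogenes AT3G60930 and AT3G60935. AGO4_Trans1275, 2588 bp on chromosome 2, had 128 and 808 reads in *ago4* and Col-0, and lies opposite the protein-coding gene AT2G17830 over 60.2% of its length. These were the highest *ago4* counts after AGO4_Trans814, and the ratios of 6.21 and 6.31 were near the selection limit. The 3 highest bounds were those of AGO4_Trans1134, at least 1544-fold, AGO4_Trans1208, 158-fold with 5 reads in *ago4* and 788 in Col-0, and AGO4_Trans3937, 82.5-fold with 11 and 907. AGO4_Trans3937 overlaps an uncharacterized RNA gene, AT5G09935, and the start of the GTPase gene ARLA1D on its own strand.

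On chromosome 4 most deduplicated Col-0 reads fell on AGO4_Trans2566, 7747 bp long, with 23 in *ago4* and 206 in Col-0. It overlaps the pseudogenes AT4G08100 and AT4G08110, and the nearest protein-coding gene is 49051 bp away. On chromosome 5 most fell on AGO4_Trans3930, with 32 in *ago4* and 451 in Col-0. That transcript runs opposite CYP81G1, a cytochrome P450 gene, over 94.1% of its length.

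Transcripts in different gene contexts differed in how many reads were left in *ago4*. Each transcript was placed in a single class by its overlap of at least 1 bp with RefSeq genes of TAIR10.1, which are a newer gene set than the TAIR10 genes whose reads the authors left out. Transcripts outside all annotated genes numbered 1468 (37.3%) and had 328 reads in *ago4* and 23595 in Col-0, or 1.39 *ago4* reads per 100 Col-0 reads (exact 95% interval 1.24 to 1.55). Those that overlap a protein-coding gene and no small structured RNA gene numbered 1983 (50.3%) and had 4712 and 71862 reads in *ago4* and Col-0, or 6.56 per 100 (6.37 to 6.75). Over the whole list the value was 5.28 per 100. With deduplicated reads the intergenic and protein-coding values were 1.54 and 6.92 per 100.

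Among intergenic transcripts, the 490 more than 1 kb from a protein-coding gene had the least, 48 reads in *ago4* and 7733 in Col-0, or 0.621 per 100 (0.457 to 0.824). The 668 that reach into the 1 kb upstream of a protein-coding gene had 1.57 per 100, and the 310 that reach only into the 1 kb downstream had 2.20. The 295 on pseudogenes had 4.65, with 530 reads in *ago4* and 11393 in Col-0. Of these, AGO4_Trans2393 alone held 199 in *ago4* and 1235 in Col-0, and the value without it was not computed. The 161 on other non-coding RNA genes had 3.22. Pseudogene and intergenic values did not overlap in their counting intervals.

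Among transcripts on protein-coding genes, 843 lie on the opposite strand only, 818 on the same strand only, and 322 touch genes on both strands. Their *ago4* reads per 100 Col-0 reads were 6.78, 5.50 and 8.44. Without AGO4_Trans1134 the value of the same-strand class was 6.48, so its difference from the opposite-strand class rested largely on that transcript. Opposite-strand transcripts were covered by the gene over 100% of their length at the median, and 428 of them (50.8%) lie wholly within it. Same-strand transcripts had a median cover of 26.1% by the gene, and 94 (11.5%) lie wholly within such genes. Of the 818, 551 (67.4%) reach past the gene's 3′ end, 186 (22.7%) past its 5′ end, 2 past both ends, and 79 stay inside. The authors called transcripts from reads outside TAIR10 genes, so own-strand transcripts within genes may have been removed before the list was made. These covers and positions therefore describe the list only.

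**Figure D2:**
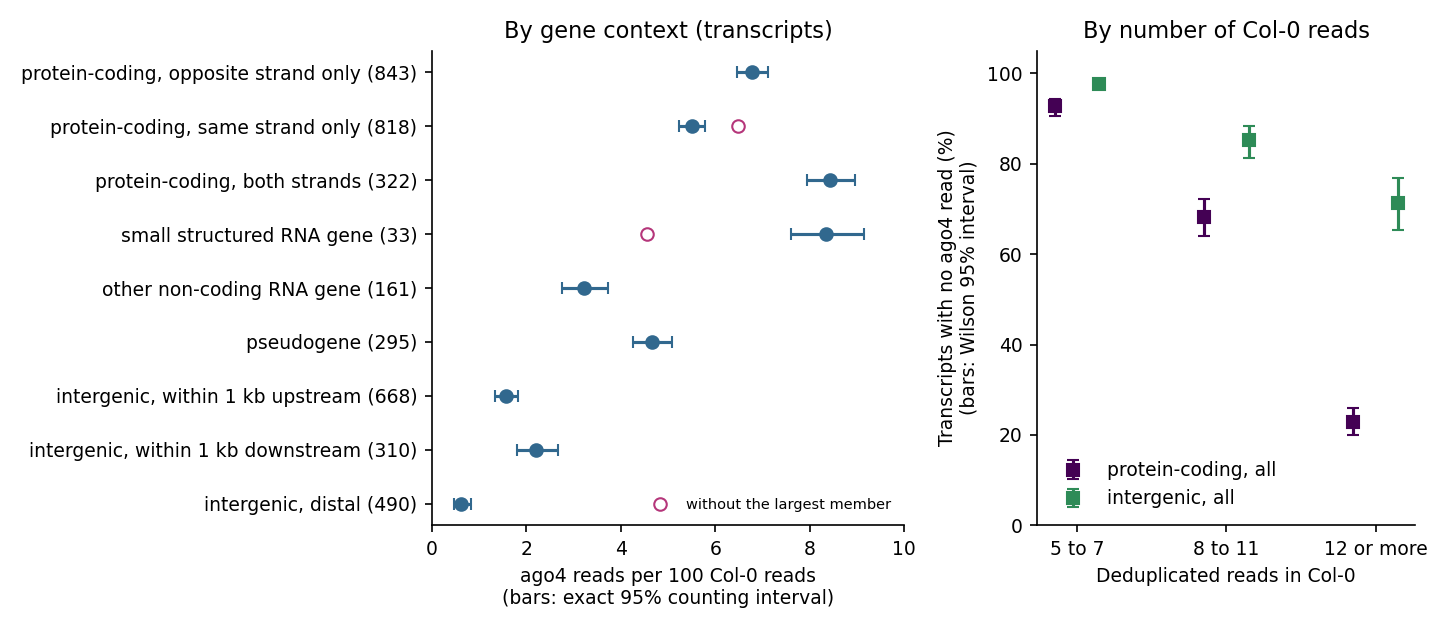
Left, *ago4* reads per 100 Col-0 reads for AGO4-bound transcripts by gene context (points, with exact 95% counting intervals; open circles leave out AGO4_Trans1134 from the same-strand class and AGO4_Trans814 from the small structured RNA class). Right, the percentage of transcripts with no *ago4* read in 3 classes of deduplicated Col-0 reads, with Wilson 95% intervals; intergenic transcripts lie above those on protein-coding genes in each class, at 71.4% against 22.8% where Col-0 had 12 or more reads, a class in which intergenic transcripts had fewer Col-0 reads (median 29 against 39).

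The difference between these contexts was also looked at within classes of Col-0 reads. With 5 to 7 deduplicated reads in Col-0, 97.7% of 830 intergenic transcripts had no read in *ago4*, against 92.7% of 701 on protein-coding genes. In this class only transcripts with 7 such reads could hold an *ago4* read, so most of these zeros were fixed by the selection of the list. With 8 to 11 reads the shares were 85.1% of 404 and 68.3% of 489. With 12 or more reads they were 71.4% of 234 (Wilson 95% interval 65.3 to 76.8%) and 22.8% of 793 (20.04 to 25.9%), but this class has no upper limit and its median Col-0 reads were 29 and 39. With 12 to 15 deduplicated reads, where the median was 25 Col-0 reads in both contexts, the shares were 80.7% of 135 (73.3 to 86.5%) and 39.2% of 232 (33.2 to 45.6%). With 16 to 20, at a median of 33 in both, they were 62.1% of 66 (50.1 to 72.9%) and 34.1% of 173 (27.5 to 41.4%). These classes were chosen after the data were seen. Median density hardly varied, at 1.62 deduplicated Col-0 reads per 100 bp for intergenic transcripts and 1.65 for those on protein-coding genes, whereas median length was 433 bp and 581 bp.

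Genes of small structured RNAs were overlapped by 33 transcripts, of which 11 met miRNA genes, 10 snoRNA genes, 7 tRNA genes and 5 snRNA genes. On the gene's own strand lay 9 of the 33, namely 4 with miRNA genes, 4 with snRNA genes and AGO4_Trans814, whereas all 7 at tRNA genes lay on the opposite strand only. The authors had left out reads in TAIR10 genes and transcripts that contain such a gene. Own-strand transcripts may thus have been removed before the list was made, and these strand counts describe the list only. The class had 498 reads in *ago4* and 5963 in Col-0, or 8.35 *ago4* reads per 100 Col-0 reads. Without AGO4_Trans814 it had 79 and 1736 reads in *ago4* and Col-0, or 4.55 per 100. After AGO4_Trans814, the most Col-0 reads belonged to AGO4_Trans1153, with 12 in *ago4* and 453 in Col-0. It is the longest transcript of the list at 8858 bp and contains MIR8168 on its own strand. AGO4_Trans3762 had 0 in *ago4* and 160 in Col-0 and runs opposite MIR4245 and the protein-coding gene AT5G52070. AGO4_Trans3233, which lies wholly opposite FASS, the gene of a protein phosphatase subunit, and opposite the snoRNA gene AT5G02915, had 1 and 126 reads in *ago4* and Col-0. AGO4_Trans1653 had 5 and 118 and runs opposite a tRNA gene and GH3.9, of the family that joins auxin to amino acids.

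The shortest transcript, AGO4_Trans729 (chr1:22603138-22603219, minus strand), lies wholly opposite the gene of U12, an RNA of the minor spliceosome. It had 0 reads in *ago4* and 12 in Col-0. Its sequence is shown because all of its 82 bases are antisense to that gene.

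AGO4_Trans729: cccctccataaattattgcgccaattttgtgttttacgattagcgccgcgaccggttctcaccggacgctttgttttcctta

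A list of 7 genes, drawn up as targets of DNA methylation, was looked up within 2 kb. Whether each of them is such a target in Col-0 was not checked. Of FWA, SDC, ROS1, MEA, CML41, QQS and FLC, only FWA, a homeobox gene silenced by methylation of repeats at its start, had an AGO4-bound transcript. AGO4_Trans2877, 277 bp from 13038394 to 13038671 on chromosome 4, runs opposite FWA and lies wholly within the annotated gene. It had 0 reads in *ago4* and 10 in Col-0. Of these, 5 remained after deduplication, the lowest count on the list, so its bound is only 3.33-fold and the selection allowed it no *ago4* read. The Pol V transcript PVTrans3479 covers it on the same strand, with 0 and 3 reads in *nrpe1* and 65 and 47 in Col-0 (2 repeats of the Pol V RIP-seq). For the other 6 genes the nearest AGO4-bound transcript was between 4153 bp (MEA) and 61612 bp (FLC) away. SDC and QQS each have Pol V transcripts within 2 kb, 1 and 3 of them, but no AGO4-bound transcript.

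AGO4-bound transcripts were spread over all chromosomes at similar density. Chromosomes 1 to 5 had 958, 701, 763, 610 and 908 of them, or 31.5, 35.6, 32.5, 32.8 and 33.7 per Mb. Together they covered 2513 kb, between 1.97% (chromosome 1) and 2.42% (chromosome 2) of a chromosome. Exactly 1970 lie on each strand, with 3301 reads in *ago4* and 61908 in Col-0 on the plus strand and 2944 and 56405 on the minus strand. Median length was 499 to 525 bp on each chromosome, and the median reads in Col-0 were 15 to 17. Chromosome 2 had the fewest *ago4* reads per 100 Col-0 reads, 3.81, against 5.10 to 6.003 on the others. Without AGO4_Trans1134 its value was 4.65, and without AGO4_Trans814 that of chromosome 1 was 5.35.

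Because the *ago4-1* mutation was introgressed, values around the AGO4 gene are given apart. Within 1 Mb of the gene, 67 transcripts had 40 reads in *ago4* and 1396 in Col-0, or 2.87 per 100 (2.04 to 3.92). Within 2 Mb, 141 transcripts had 5.32 (4.64 to 6.08), and the rest of chromosome 2 without AGO4_Trans1134 had 4.47 (4.15 to 4.81). The part of the introgression in these values was not tested.

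Along the chromosomes, transcripts were fewest in the windows with least gene sequence. In 500 kb windows the median was 16 transcripts, the highest 35 and the lowest 0, in 2 windows of chromosome 1. Windows with under 30% of their length in protein-coding genes numbered 41 of 240. They held 494 transcripts (12.5%) in 17.2% of the genome, or 24.1 per Mb against 34.9 per Mb elsewhere. The fullest windows of chromosomes 1, 2, 4 and 5 had 30, 35, 34 and 32 transcripts, at a gene cover of 73.9%, 30.7%, 32.2% and 49.4%. On chromosome 3 the highest count, 27, was reached at 57.6% and at 66.4% gene cover. Across the 240 windows, the number of AGO4-bound transcripts had a Spearman correlation of -0.05 with gene cover and 0.58 with the number of Pol V transcripts. Neighbouring windows are not independent, and both lists share the same genome sequence and were called by like steps with different limits.

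**Figure D3:**
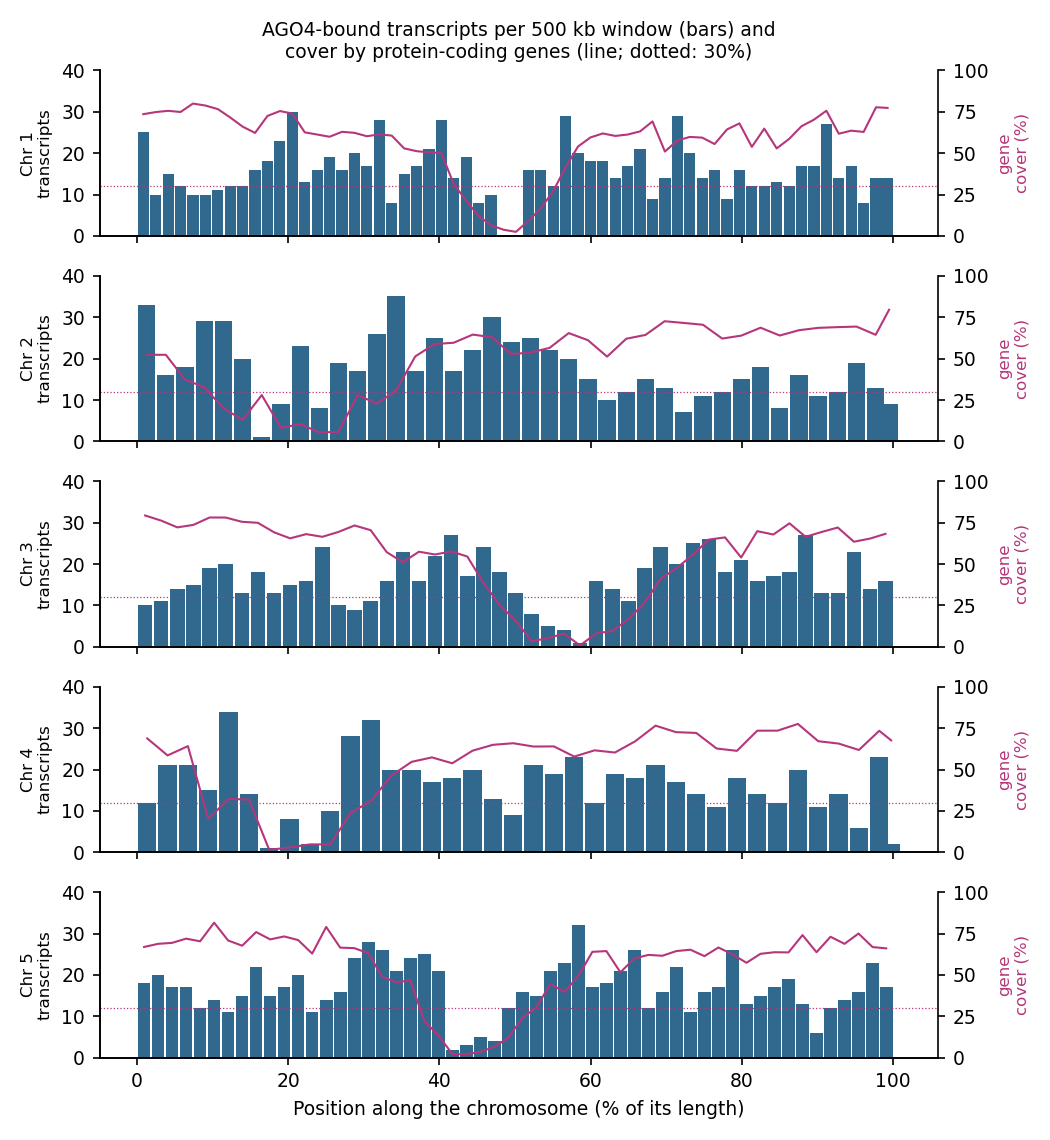
AGO4-bound transcripts per 500 kb window (blue bars, left axis) and the percentage of each window in protein-coding genes (red line, right axis; dotted line at 30%) along the 5 chromosomes, with position as a percentage of chromosome length. Counts reach 35 on chromosome 2 and are 0 to 10 in the 12 windows with least gene cover.

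Gene-poor windows had 429 reads in *ago4* and 17405 in Col-0, or 2.46 *ago4* reads per 100 Col-0 reads, against 5.76 in the other windows. Without AGO4_Trans1134 the gene-poor value was 3.35. No *ago4* read was found for 83.8% of the gene-poor and 71.1% of the other transcripts, and among those with 12 or more deduplicated Col-0 reads for 57.2% of 138 and 34.4% of 1078. With 12 to 15 such reads the shares were 70.2% of 57 (57.3 to 80.5%) and 55.7% of 386 (50.7 to 60.6%), whose intervals overlap, and with 16 to 20 they were 73.1% of 26 and 42.2% of 237. Lengths were alike, with medians of 510 and 513 bp.

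Transcripts were short and lay close to the density limit of the list. The median length was 513 bp (95% interval 499 to 524), with quartiles of 370 and 773 bp. Only 121 were shorter than 200 bp, 573 (14.5%) were longer than 1 kb, and 117 longer than 2 kb. The fewest deduplicated Col-0 reads were 5, found for 734 transcripts (18.6%), and the lowest density was 1.00 deduplicated read per 100 bp. Just inside that limit, 396 (10.1%) had a density under 1.1, and 67.4% had one under 2. At 10 or more reads per 100 bp were 43 transcripts (1.09%). Longer transcripts had more deduplicated Col-0 reads (Spearman 0.71 across the 3940 transcripts, a description) and a lower density (-0.32). Both limits act on these points.

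**Figure D4:**
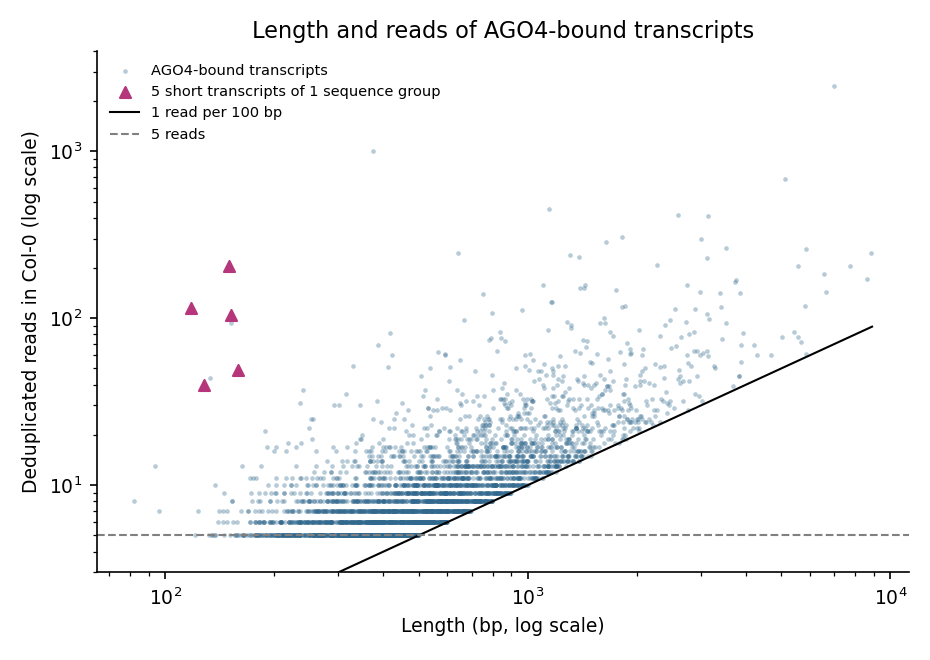
Length (x axis, bp, log scale) and deduplicated Col-0 reads (y axis, log scale) of the 3940 AGO4-bound transcripts, with lines at 1 read per 100 bp and at 5 reads. Points fill the corner above both lines, and the 5 transcripts of 118 to 159 bp that share the printed motif (triangles) stand at 40 to 206 reads.

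Longer transcripts had no *ago4* read less often, whereas *ago4* reads per 100 Col-0 reads were in the order of length only without AGO4_Trans814. The 1317 transcripts of 82 to 416 bp had 800 reads in *ago4* and 24629 in Col-0, or 3.25 per 100, and 91.0% of them had no *ago4* read. AGO4_Trans814 held more than 50% of those *ago4* reads, and without it the values were 381 and 20402 reads in *ago4* and Col-0, or 1.87 per 100 (1.68 to 2.07). The 1310 of 417 to 655 bp had 561 and 23104 reads in *ago4* and Col-0, or 2.43 per 100 (2.23 to 2.64), and 82.5% had no *ago4* read. Their value lay below that of the short transcripts with AGO4_Trans814 and above it without. The 1313 of 656 to 8858 bp had 4884 and 70580 reads in *ago4* and Col-0, or 6.92 per 100, and 44.4% had none. Median Col-0 reads were 12, 14 and 30 in these classes, and median deduplicated Col-0 reads were 6, 7 and 15. With fewer than 7 deduplicated reads the selection allows no *ago4* read, so it fixed many zeros of the shortest class. The length classes were not compared within classes of Col-0 reads, and their values describe the list only. The part of Col-0 reads in these differences was not tested.

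Deduplication removed 46.9% of the *ago4* reads and 49.5% of the Col-0 reads on the list. Per transcript, Col-0 had a median of 1.88 reads per deduplicated read, with 81.4% of transcripts between 1.5 and 2.5 and 33 above 3. In the 1077 transcripts with an *ago4* read, the median was 1.80 in *ago4*. The ratio hardly went with the number of deduplicated reads (Spearman 0.04) or with density (0.06) across the 3940 transcripts. Among transcripts with at least 20 deduplicated Col-0 reads the highest ratios were 5.45 for AGO4_Trans3801, 4.21 for AGO4_Trans814 and 3.67 for AGO4_Trans3937. In *ago4* these 3 had 2.58, 2.87 and 2.20 reads per deduplicated read. The lowest ratios, 1.38 for AGO4_Trans3604 and AGO4_Trans3300 and 1.39 for AGO4_Trans3768, belonged to transcripts with 32, 21 and 23 deduplicated Col-0 reads. AGO4_Trans3768 runs wholly opposite LTI78, a gene induced by cold and drought.

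On opposite strands, 695 of the 3940 transcripts (17.6%, Wilson 95% interval 16.5 to 18.9%) overlapped another AGO4-bound transcript. They formed 354 pairs, and 13 transcripts had 2 partners. With the other 3245 counted alone, the list came to 3586 regions. In 172 pairs a transcript lay within its partner (nested), in 129 the 5′ ends overlapped (divergent) and in 53 the 3′ ends (convergent). The median overlap was 371 bp, or 99.01% of the shorter transcript. The ends of the transcripts in a pair lay within 100 bp of each other for 271 of 708 ends (38.3%).

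The reads of the strands in a pair were compared. Over the whole list, deduplicated Col-0 reads had quartiles of 6 and 13, so unrelated transcripts can also lie within 2-fold. The share for unpaired transcripts was not computed. Deduplicated Col-0 reads differed by at most 2-fold in 265 of 354 pairs (74.9%) and by over 4-fold in 28, of which 20 were nested. The plus strand had more in 162 pairs, the minus strand in 160, and 32 were equal. Across pairs the Spearman correlation of the strands was 0.23 over all pairs, 0.45 in convergent, 0.41 in divergent and 0.03 in nested pairs, where the transcripts differ in length. In 256 pairs (72.3%) neither strand had a read in *ago4*, in 81 only a single strand had, and in 17 both had.

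**Figure D5:**
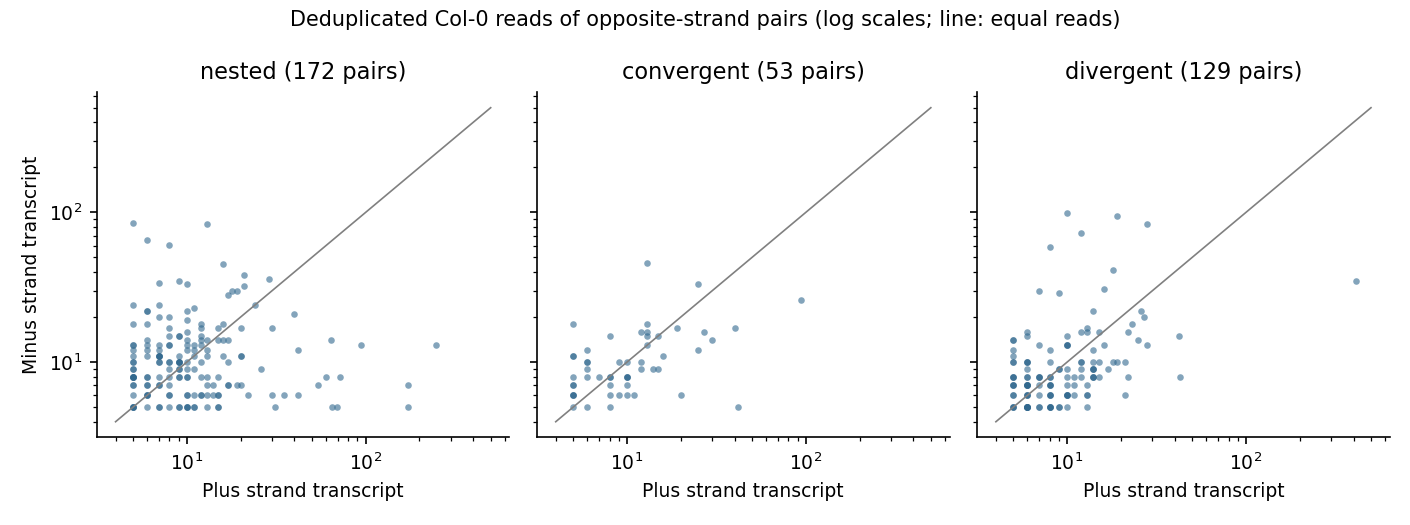
Deduplicated Col-0 reads of the plus strand (x axis) and minus strand (y axis) transcript of each of the 354 opposite-strand pairs, on log scales, in the nested, convergent and divergent arrangement; the line marks equal reads. Convergent and divergent pairs lie closer to the line than nested pairs, with 81.1%, 81.4% and 68.0% of pairs within 2-fold.

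Most reads in a pair belonged to AGO4_Trans1208 and AGO4_Trans1207 on chromosome 2, which also had the longest overlap, 1813 bp. AGO4_Trans1208 on the plus strand had 5 reads in *ago4* and 788 in Col-0, and AGO4_Trans1207 on the minus strand had 2 and 65. They lie on RLP18, a transcribed pseudogene related to receptor-like proteins. The pair most unequal in reads was AGO4_Trans2027, 8635 bp with 24 reads in *ago4* and 326 in Col-0, and AGO4_Trans2029, 241 bp nested opposite it with 0 and 9. Their densities were alike, at 1.99 and 2.07 deduplicated Col-0 reads per 100 bp, so this pair differs in length and not in density.

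Transcripts with an opposite partner had 426 reads in *ago4* and 17808 in Col-0, or 2.39 per 100 (2.17 to 2.63), against 5.79 (5.64 to 5.94) for those without. With 12 or more deduplicated Col-0 reads, 65.4% of 237 with a partner and 30.1% of 979 without had no *ago4* read, at median Col-0 reads of 31 and 37. With 12 to 15 such reads, at a median of 25 in both groups, the shares were 77.1% of 109 and 51.2% of 334. Partners were found for 35.6% of transcripts on pseudogenes, for 28.4% of distal intergenic transcripts and for 5.59 to 7.95% in the contexts on protein-coding genes. Median density was 1.62 deduplicated Col-0 reads per 100 bp in both groups.

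Along a single strand, transcripts were mostly isolated. The gap to the next on the same strand was at least 202 bp and 37763 bp at the median, and 124 of 3930 gaps (3.16%) were at most 1 kb. No more than 3 transcripts followed each other at such gaps. AGO4_Trans1134 to AGO4_Trans1136 formed the chain with most reads, 1 in *ago4* and 4749 in Col-0 over 12796 bp.

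Beside the Pol V list, AGO4-bound transcripts were shorter and lay more often on genes. Median length was 513 bp for AGO4-bound and 689 bp for Pol V transcripts, 50.7% and 23.0% overlapped a protein-coding gene, and 12.5% and 22.1% lay in gene-poor windows. The authors called the Pol V list from 2 repeats with a higher read minimum, a lower fold limit and a test. The AGO4 list came from 1 library per genotype without a test. The part of these filters in the differences was not tested. GC content was alike, with medians of 35.1% and 34.6%, against 36.0% for the nuclear genome. Of the AGO4-bound transcripts, 1629 (41.3%) overlapped a Pol V transcript of their own strand, and 147 more met them on the opposite strand only. Across these 1629, the deduplicated Col-0 density in the AGO4 RIP-seq and the mean Col-0 density of the best-overlapping Pol V transcript had a Spearman correlation of 0.39. Regardless of strand, overlap with a Pol V transcript was found for 79.6% of distal intergenic transcripts, 74.9% of those on pseudogenes, 28.2% of those opposite protein-coding genes and 16.4% of those on their own strand. The 1776 transcripts with such overlap had 1.78 *ago4* reads per 100 Col-0 reads (1.64 to 1.92). The 2164 without it had 6.83 (6.65 to 7.02). Gene context and Pol V overlap thus went together, and their separate parts in the *ago4* reads were not tested.

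The most Col-0 reads among the 1629 belonged to AGO4_Trans1208, AGO4_Trans2027 and AGO4_Trans2562. PVTrans1525, on the strand of AGO4_Trans1208, had 229 and 34 reads in *nrpe1* and 2681 and 764 in Col-0. PVTrans2351, on that of AGO4_Trans2027, had 168 and 27 in *nrpe1* and 779 and 506 in Col-0. AGO4_Trans2562, 6631 bp on chromosome 4 over the pseudogenes AT4G08111 and AT4G08112, had 18 reads in *ago4* and 259 in Col-0, and PVTrans3114 at this place had 66 and 14 in *nrpe1* and 788 and 259 in Col-0. Both mutants had reads at each of these 3 loci.

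Reads that fit several places in the genome had been kept at a single place, and the sequence of the list was mostly unique. All words of 50 bases occurred once in the genome for 3238 transcripts (82.2%), and fewer than 50% of the words did for 61. A mean of 97.1% of a transcript's words occurred once, against 93.8% of all such words in the nuclear genome. Calling from what the methods term unique reads favours such sequence. The *ago4* reads per 100 Col-0 reads were 5.46 in the 3238, 4.73 in the 641 between, and 4.78 in the 61. AGO4_Trans814 held 419 of the 4871 *ago4* reads of the 3238, and AGO4_Trans1134 held 4633 of the 27639 Col-0 reads of the 641. Values without these transcripts were not computed, and the order of the classes may rest on them.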

How the data were processed

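RIP-seq libraries were sequenced by the authors as paired 50 bp reads from a stranded kit and mapped to TAIR10 with SOAPsplice, which kept a read that fits several places at a single place. Transcripts were called from what the methods term unique reads, outside TAIR10 genes, and those that contained such a gene were removed. AGO4-bound transcripts had passed filters on reads, density and the Col-0 to *ago4* fold, with no test. The deposited values are raw read counts per transcript and library, for AGO4 both all reads and deduplicated reads; how duplicates were defined is not given in the sources used here. Of 9 libraries, 6 have columns in the lists, and 0 columns of values per library were left unused. The 2 columns of p-values and q-values in the Pol V list hold the authors' own test and were not used.

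Depth on the list was 6245 (*ago4*) and 118313 (Col-0) reads. Reads carry no molecular identifiers. Folds were Col-0 over *ago4* reads, with *ago4* counted as at least 3. Ratios have exact (Clopper-Pearson) and shares Wilson 95% intervals, and medians order-statistic ones. Those of ratios were computed on all reads, duplicates included. Starts and ends are as deposited, with starts taken to count from 0; printed sequences count from 1. Genes and sequence were RefSeq's for TAIR10.1, whose nuclear chromosomes serve for TAIR10 coordinates. Overlap meant at least 1 bp. Scripts used Python 3.11.15, numpy 2.4.6, pandas 2.3.3, scipy 1.17.1 and matplotlib 3.10.9, and the overlap, merging and word-sharing steps were tested on simulated intervals and sequences.

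Named transcripts were the extremes in reads, density, fold, duplication and length, those leading each chromosome, the leading opposite pairs, those with most reads on Pol V transcripts and small RNA genes, and those within 2 kb of the 7 genes drawn up as methylation targets. Members of the sequence groups were named after their values were seen. The members and lists were chosen with earlier results of these data known. Alternatives changed the read type, floor, scaling, read minimum, unit, overlap and windows. The AGO4 precipitation from *nrpe1*, and the Pol V precipitations from *ago4* and *idn2*, were not analysed here.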

Additional observations from a re-analysis of the deposited data

How the results depend on the processing

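With 1 library per genotype, no replicate could be left out, and no paired analysis was possible because the result comes from no test and each genotype has 1 library. The median bound of the fold of Col-0 over *ago4*, 5.33, was 2.67 with deduplicated reads, 13.0 and 3.20 with floors of 1 and 5 reads, 4.67 with the *ago4* reads multiplied by 2, 8.88 over transcripts with at least 20 Col-0 reads and 5.67 over merged regions. The count of 1749 transcripts at least 6-fold lower in *ago4* was 634 with deduplicated reads and 3920 and 810 with floors of 1 and 5 reads. The share with no *ago4* read, 72.7%, was 43.4% with at least 20 Col-0 reads and 70.4% over merged regions. Deduplication removed 46.9% of *ago4* reads summed over the list, 44.4% at the median transcript and 45.4% without the 10 transcripts with most Col-0 reads, and for Col-0 49.5%, 46.7% and 48.1%. The share overlapping a transcript on the other strand, 17.6%, was 13.0% where the overlap had to cover 50% of the transcript and 9.37% with at least 20 Col-0 reads. The floor, the read type and the read minimum change these values by their construction, since most transcripts have few reads. Of all 42 alternatives set with the design, 13 were taken as the same and 29 as moved. Medians and shares were held to counting error, so that a small change such as 5.33 to 5.67 counts as moved. Counts of transcripts were held to 1.5 times the main value. After the data were seen, 25 were added, which leave out AGO4_Trans1134 or AGO4_Trans814 or split by Col-0 reads. The libraries' total reads are not known here, and any scaling between them was not tested beyond the factors above.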
